A study of Mus musculus with 4 samples.

Results

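Runx2 occupied 880 distal regions of the mouse genome at day 0 and at day 9 of osteoblast differentiation, with no called peak at day 28. They were selected on the deposited Runx2 peak lists, as regions with a peak at days 0 and 9 and none at day 28, whose centre lay more than 1 kb and at most 100 kb from the nearest transcription start site (TSS) of a protein-coding gene and outside every protein-coding exon. These 880 were found among 67703 regions in all, obtained by joining any peaks of the 3 lists with a common stretch of 1 bp or more. Of all merged regions, 1146 (1.69%) had peaks at days 0 and 9 alone, and among the 43666 distal regions the share was 2.02%. Both shares follow from the selection and nothing is read from them.

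The study profiled Runx2 by ChIP-Seq in MC3T3-E1 subclone 4, a preosteoblast line from mouse calvaria (strain C57BL/6) that is a single clone and not a tissue. Day 0 cells were proliferating preosteoblasts in medium without ascorbic acid, day 9 cells were depositing matrix and day 28 cells were mineralizing, both later groups after ascorbic acid and beta-glycerophosphate had been added. All 3 groups were precipitated with the Runx2 antibody M70, and input DNA came from matrix-depositing cells. The libraries of each time point were pooled before peaks were called, so that each time point is 1 list, nothing can be tested between time points, and intervals given below cover counting error over regions only. Per list, 25457 peaks were given for day 0, 60596 for day 9 and 40330 for day 28.

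Runx2 is the Runt-domain transcription factor required for osteoblast commitment and bone formation. It binds DNA together with CBF-beta, and its core recognition sequence is TGTGGT. Binding sites far from promoters are often enhancers, where lineage factors such as Runx2 sit beside factors that respond to growth and adhesion signals. Among these are the TEAD proteins, the DNA-binding partners of YAP and TAZ, which bind GGAATG, and the Fos and Jun proteins of AP-1. AP-1 binds TGAGTCA or its reverse complement TGACTCA, and the letters TGANTCA searched here allow any base in the middle. Fos and Jun are induced when cells are stimulated to grow.

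To show the DNA under these peaks, the 10 regions with the highest lower one of their day 0 and day 9 score percentiles are given first. The score grows with the peak caller's significance (-log10 of the MACS p-value, multiplied by 10), and a percentile is a peak's place within its own list. Each sequence spans 50 bp on either side of the day 9 peak centre, on the plus strand of mm9, with TGTGGT, its reverse complement ACCACA and TGANTCA in capitals. In 6 of the 10, TGTGGT lay within 50 bp of the centre, and the sequences of *Ctnna3* and *Immt* held TGANTCA as well.
Ctnna3, chr10:63034441-63034541: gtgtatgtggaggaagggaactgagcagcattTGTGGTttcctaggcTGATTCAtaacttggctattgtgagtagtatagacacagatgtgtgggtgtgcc
Tmco7, chr8:109225328-109225428: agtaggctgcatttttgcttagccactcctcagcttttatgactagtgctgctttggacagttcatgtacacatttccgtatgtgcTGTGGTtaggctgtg
Nek11, chr9:105278830-105278930: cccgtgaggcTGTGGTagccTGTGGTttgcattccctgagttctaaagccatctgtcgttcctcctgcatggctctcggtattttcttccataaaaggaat
Prss35, chr9:86668926-86669026: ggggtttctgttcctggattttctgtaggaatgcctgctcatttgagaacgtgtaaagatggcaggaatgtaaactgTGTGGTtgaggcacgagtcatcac
Immt, chr6:71797100-71797200: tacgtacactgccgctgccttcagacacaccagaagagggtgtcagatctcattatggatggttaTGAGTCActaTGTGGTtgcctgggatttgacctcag
Pdcl2, chr5:76775406-76775506: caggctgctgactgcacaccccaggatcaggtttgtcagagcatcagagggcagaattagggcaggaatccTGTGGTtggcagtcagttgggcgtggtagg

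In the other 4 of the 10 no TGTGGT was found in this window, which says only that these letters were not there.
Trpm8, chr1:90257989-90258089: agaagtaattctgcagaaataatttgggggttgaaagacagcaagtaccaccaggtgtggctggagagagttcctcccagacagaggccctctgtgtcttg
Cdk18, chr1:134048593-134048693: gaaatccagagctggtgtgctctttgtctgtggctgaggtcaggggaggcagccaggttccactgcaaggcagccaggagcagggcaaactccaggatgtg
Elk3, chr10:92750495-92750595: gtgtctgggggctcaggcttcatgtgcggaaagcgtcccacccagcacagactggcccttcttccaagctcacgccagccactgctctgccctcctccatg
Slc12a5, chr2:164801301-164801401: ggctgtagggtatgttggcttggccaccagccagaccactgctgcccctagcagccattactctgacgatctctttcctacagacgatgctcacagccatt

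The 10 regions had day 0 scores between 380 and 989 and day 9 scores between 433 and 982. The strongest by this rank, in an intron of *Trpm8* (a cold-sensing cation channel), spanned chr1:90257434-90258788, 42623 bp downstream of the TSS, and scored 989 at day 0 (percentile 90.5) and 755 at day 9 (percentile 75.7). The intronic region of *Ctnna3* (alpha-T-catenin, an actin-linked adhesion protein) at chr10:63034203-63034790 scored 505 at day 0 (percentile 73.6) and 842 at day 9 (percentile 77.6). Its peak centres were 6 bp apart, and the nearest day 28 peak lay 900 bp away.

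An intronic region of *Elk3*, an ETS-family partner of serum response factor, spanned chr10:92749435-92751556 and scored 590 at day 0 (percentile 78.5) and 514 at day 9 (percentile 67.9). The region 12459 bp upstream of *Cdk18*, a cyclin-dependent kinase gene, at chr1:134048410-134049031 scored 440 at day 0 (percentile 68.7) and 982 at day 9 (percentile 80.2). It was the only one of the 10 outside an intron. The 10 also included regions in introns of *Tmco7*, *Nek11* (a NIMA-related kinase), *Slc12a5* (a potassium-chloride cotransporter) and *Immt* (mitofilin, of the mitochondrial inner membrane), one nearest to *Prss35* in an intron of *Snap91*, and one nearest to *Pdcl2* in an intron of *Nmu* (neuromedin U).

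Most of the 880 regions had low scores in both lists. The day 0 scores ran from 100 to 1875 with a median of 167 (95% interval 158 to 174), and the day 9 scores ran from 100.2 to 1141 with a median of 161 (155 to 166). In percentiles the median was 27.3 in the day 0 list (24.9 to 29.4) and 30.05 in the day 9 list (28.1 to 31.6), and the highest values were 97.2 and 82.8. The all-stage distal regions, 8297 regions with a peak at each time point, had median percentiles of 58.2 at day 0 and 71.8 at day 9, whereas day 9 only regions (n = 16937) had a median of 27.2 and day 0 only regions (n = 2716) a median of 22.8. In this respect the regions of days 0 and 9 lay near the regions of a single time point. Score and presence come from the same peak calls, so that these values describe the selection.

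A p-value of 1e-20 or lower was reached by 317 of the 880 regions at day 0, by 299 at day 9 and by 122 at both days (13.9%, 95% interval 11.6% to 16.3%). The day 0 and day 9 percentiles of a region had a Pearson's r of 0.118 and a Spearman's rho of 0.101 over the 880 regions, which share 2 lists cut at the same p-value, and 422 regions stood higher in the day 0 list.

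**Figure D1:**
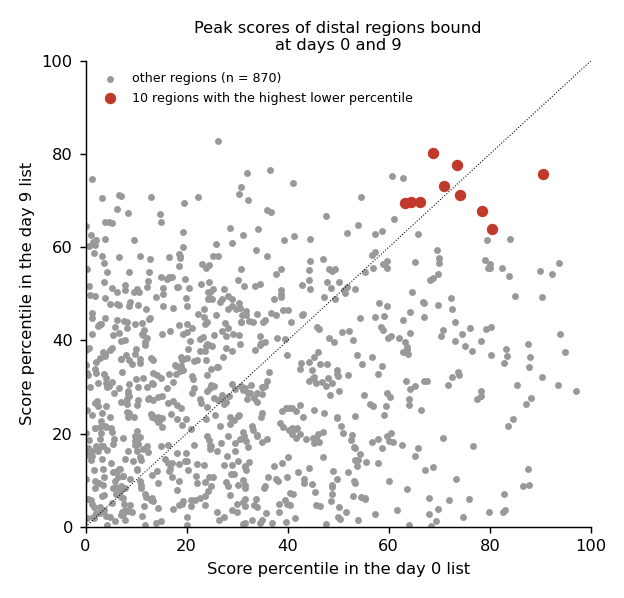
Score percentile of each of the 880 distal regions bound at days 0 and 9 in the day 0 list (x axis) and in the day 9 list (y axis), 1 point per region, with the 10 regions of highest lower percentile in red and the dotted line at equal percentiles. Points crowd toward the lower left, around medians of 27.3 and 30.05, and no region passes 82.8 at day 9.

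The 5 regions with the highest day 0 scores stood lower in the day 9 list, at percentiles from 29.2 to 56.7. The median day 9 percentile of the 880 regions was 30.05. The region in an intron of *Tns3* (tensin 3, which links integrins to actin) at chr11:8469178-8470829 scored 1875 at day 0 (percentile 97.2) and 158 at day 9 (percentile 29.2). The region 19272 bp upstream of *Ptn* (pleiotrophin, a heparin-binding growth factor of bone matrix) at chr6:36780026-36781240 scored 1365 at day 0 (percentile 94.8) and 190 at day 9 (percentile 37.5). The other three of the top 5 at day 0 were in introns of *Adamtsl3* (day 0 score 1263, day 9 score 209) and *Pik3cb* (1212 and 163), the gene of a PI3-kinase catalytic subunit, and upstream of *Gm12824* (1237 and 330).

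Some regions with the highest day 9 scores stood far lower in the day 0 list. The region 3275 bp upstream of *Gm9234* at chr7:128162205-128162726 scored 163 at day 0 (percentile 26.2) and 1141 at day 9 (percentile 82.8). An intronic region of *Plekhm1*, a lysosomal adaptor needed for bone resorption by osteoclasts, scored 202 at day 0 (percentile 36.5) and 797 at day 9 (percentile 76.6). A region 17423 bp downstream of the TSS of *Dact2*, a modulator of Wnt and TGF-beta signalling, scored 184 at day 0 (percentile 32.0) and 766 at day 9 (percentile 75.9). The regions of *Cdk18* and *Ctnna3* above completed the top 5 at day 9 and were the only ones of these 5 above the median percentile of both lists.

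The day 0 and day 9 peaks of a region overlapped through the selection, which limits the distance between them. Their centres were a median of 62 bp apart (95% interval 56 to 68, quartiles 27 and 143), and 579 of 880 pairs (65.8%) were within 100 bp. As a share of the greatest separation that allows 1 bp of overlap, the median was 10.2% (9.60% to 10.9%). The largest distance, 1085 bp, was in *Ly6f* (a Ly6 surface protein gene), where a day 0 peak of 2762 bp covered a day 9 peak of 420 bp. In the all-stage regions the median was 74 bp (71 to 76). Day 0 peaks were the wider ones in 846 of 880 regions, with a median of 766.5 bp against 438 bp, and 721 day 9 peaks (81.9%) lay wholly inside the day 0 peak. The same difference in width held for all peaks of the lists, whose medians were 917 bp at day 0 and 554 bp at day 9. In 851 regions there was 1 peak at each day, 28 had 2 day 9 peaks and 1 had 2 day 0 peaks.

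The core Runx sequence was frequent at the centres of these peaks. TGTGGT was found, on either strand, within 50 bp of the day 9 centre in 263 of 880 regions (29.9%, 95% interval 26.9% to 33.0%) and within 50 bp of the day 0 centre in 214 (24.3%, 21.5% to 27.3%). Windows of the same summed length 500 bp to either side held it in 7.84% and 9.77% of the regions. The excess at the centre was 22.0 percentage points at day 9 (exact McNemar test, two-sided, adjusted p = 1.05e-32) and 14.5 points at day 0 (adjusted p = 3.87e-15). Over all distal regions with a peak on the day, TGTGGT was at 30.7% of day 9 centres and 22.0% of day 0 centres. At one or the other centre it was found in 338 regions (38.4%), and at both in 139 (15.8%).

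Day 9 centres held TGTGGT in 25.6% of all-stage regions and in 33.3% of day 9 only regions. The regions of days 0 and 9 exceeded the former by 4.32 points (95% interval 1.24 to 7.56, Fisher's exact test, two-sided, adjusted p = 0.0107). All-stage regions had wider day 9 peaks, with a median of 626 bp against 438 bp, and centres stood in for summits. The part of width in this difference was not tested. Against the day 9 only regions the difference of -3.37 points (-6.38 to -0.181) did not pass the threshold of 0.05 (Fisher's exact test, adjusted p = 0.0509). Merging by centres within 250 bp turned the difference from all-stage regions to -1.53 points, and a search for TGTGGT or TGCGGT left it at 3.34 points with an adjusted p of 0.0611. The difference from the day 9 only regions depended on the setting. It passed by Fisher's exact test at a peak p-value of 1e-20 (-4.97 points, adjusted p = 0.0417), with overlap of 50% of the shorter peak (-3.82, 0.0286), with centres within 250 bp (-6.67, 3.83e-06) and with a TSS limit of 50 kb (-3.88, 0.0472), and turned to 0.854 points with windows of 100 bp on either side.

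Day 0 centres held TGTGGT in 19.3% of day 0 only regions, 5.06 points fewer than in the regions of days 0 and 9 (1.94 to 8.34, Fisher's exact test, adjusted p = 0.00451). The flanks differed in the same direction, with 6.77% in day 0 only regions against 9.77% in the regions of days 0 and 9. All-stage regions had 7.74% in their day 0 flanks. The part of this background in the difference at the centres was not tested. The difference from the all-stage regions, whose day 0 centres held it in 22.7%, was 1.61 points (-1.26 to 4.68) and did not pass (exact test, adjusted p = 0.321). It passed by the exact test at a peak p-value of 1e-20 (4.28 points, adjusted p = 0.0456) and with windows of 100 bp on either side (3.82, 0.0419), and turned to -2.48 points with centres within 250 bp and to -0.216 with TGTGGT or TGCGGT. The p-values of these Runx tests and of those on introns were adjusted together over 9 tests by the method of Benjamini and Hochberg.

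**Figure D2:**
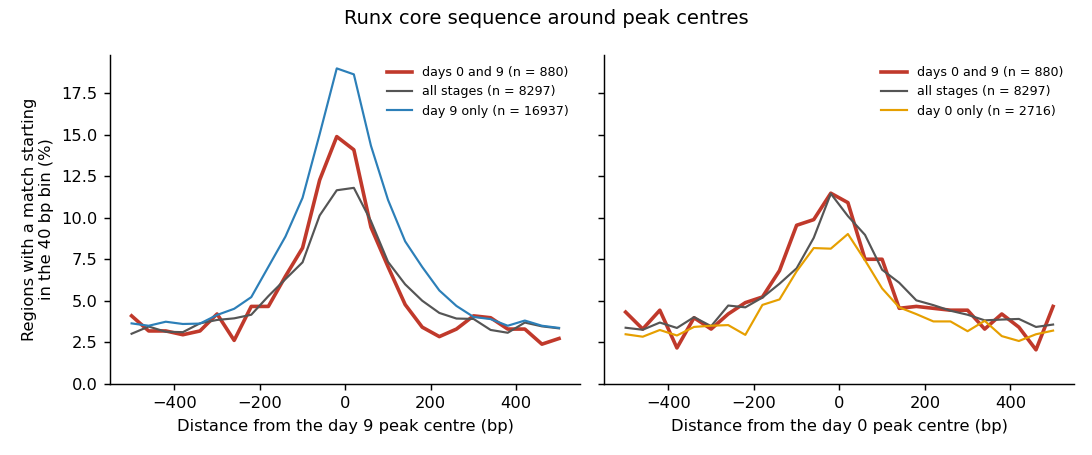
Percentage of regions with a TGTGGT match (either strand) starting in each 40 bp bin (y axis), by distance in bp from the day 9 peak centre (left) and the day 0 peak centre (right), for regions of days 0 and 9 and the comparison classes. All lines are highest near the centre. In the bin just before the day 9 centre the 880 regions, at 14.9%, stand between day 9 only (18.99%) and all-stage regions (11.7%), and from 60 to 180 bp after it they fall below both.

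By band of the day 9 percentile, TGTGGT was at the day 9 centre of 26.3% of the regions below percentile 20 (78 of 297, 95% interval 21.3% to 31.7%), 28.7% from 20 to 40, 32.6% from 40 to 60, and 42.2% above (27 of 64, 29.9% to 55.2%). The intervals of the lowest and the highest band overlapped. Day 9 only regions had 30.4%, 32.0%, 35.5% and 43.8% in the same order. All-stage regions had 28.1%, 27.0%, 25.6% and 25.2%, so that the intervals of the regions of days 0 and 9 and of the all-stage regions did not overlap above percentile 60. At day 0 the shares in the regions of days 0 and 9 were 22.6%, 23.5%, 29.6% and 24.0%, with overlapping intervals.

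At day 0 centres TGTGGT was more frequent where the day 9 centre was near. Where the centres were 0 to 26 bp apart, it was found at 34.7% of day 9 centres and 34.2% of day 0 centres (28.0% to 40.9%). Where the centres were 143 to 1085 bp apart, it was still at 26.2% of day 9 centres (20.6% to 32.6%) but at 9.95% of day 0 centres (6.34% to 14.7%), close to the 9.77% of the day 0 flanks. Centres stood in for summits here, and day 0 peaks were the wider ones (median 766.5 bp against 438 bp). The part of this width in the day 0 shares was not tested.

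The AP-1 sequence TGANTCA, a palindrome, set these regions apart from those bound at day 9 alone. Matches with A or T in the middle, as in the sequences of *Ctnna3* and *Ptn*, were counted with those of G or C. The shares were not split by this base. It lay within 50 bp of the day 9 centre in 93 of 880 regions (10.6%, 95% interval 8.61% to 12.8%), against 3.75% in the flanks, and within 50 bp of the day 0 centre in 105 (11.9%, 9.86% to 14.3%), against 3.07% in the flanks. Day 9 only regions held it at 455 of 16937 centres (2.69%, 2.45% to 2.94%), hardly above their flanks (2.46%). The difference of 7.88 points had a 95% interval of 6.00 to 10.1. Over all distal regions with a peak on the day, TGANTCA was at 4.43% of day 9 centres and 8.60% of day 0 centres.

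The day 0 only regions held TGANTCA in 11.01% of their centres, and the difference of 0.923 points from the regions of days 0 and 9 had an interval of -1.41 to 3.49. The all-stage regions lay between, with 7.82% at day 9 centres and 7.21% at day 0 centres. The regions of days 0 and 9 exceeded them by 2.75 points at day 9 (0.790 to 5.02) and by 4.72 points at day 0 (2.66 to 7.09). The day 9 difference was 8.30 points at a peak p-value of 1e-20 and 5.59 with windows of 100 bp on either side, and its interval included 0 with centres within 250 bp (1.16 points) and with a TSS limit of 50 kb (1.92 points). The day 0 difference was 1.86 points with centres within 250 bp, with an interval that still excluded 0. Within bands of the day 9 percentile (below 20, 20 to 40, 40 to 60 and above), day 9 only regions held TGANTCA in 2.83%, 2.85%, 2.54% and 1.87% of centres and the regions of days 0 and 9 in 6.73%, 12.8%, 13.0% and 9.38%, with no overlap of the intervals in any band. All-stage regions held it in 8.12%, 11.8%, 10.2% and 6.58% of centres in the same bands. Their intervals overlapped those of the regions of days 0 and 9 in every band.

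**Figure D3:**
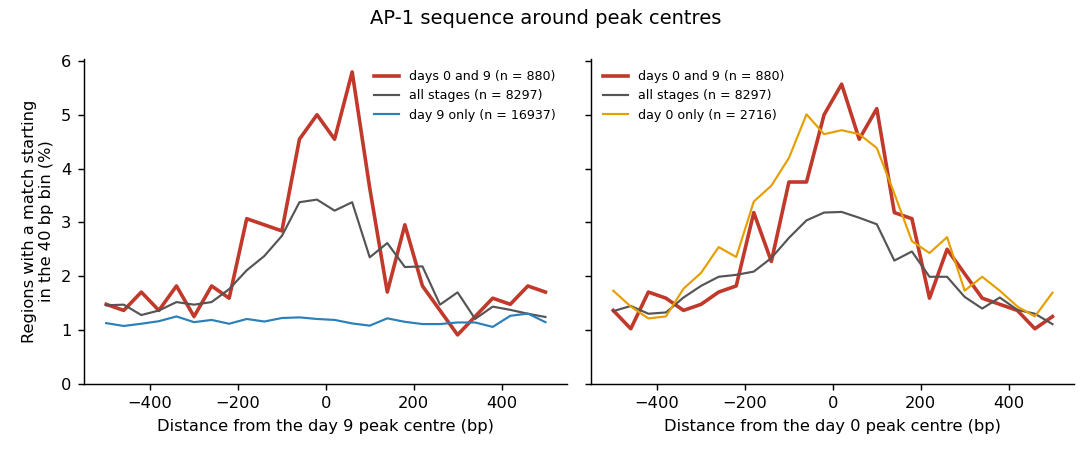
Percentage of regions with a TGANTCA match starting in each 40 bp bin (y axis), by distance in bp from the day 9 peak centre (left) and the day 0 peak centre (right). The line of the 880 regions is highest 60 bp after the day 9 centre (5.80%) and 20 bp after the day 0 centre (5.57%), while the line of the day 9 only regions stays near its value at the centre, 1.204%, over the whole window.

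The AP-1 sequence was counted separately in regions with and without the Runx core. TGANTCA was at 28 of the 263 day 9 centres that held TGTGGT (10.6%) and at 65 of the 617 that did not (10.5%). At day 0 centres it was at 31 of 214 (14.5%) and 74 of 666 (11.1%). Altogether 434 regions (49.3%) had at least one of these sequences at one of their centres. Beside *Ctnna3* and *Immt* above, the next regions by lower percentile with TGTGGT and TGANTCA at the day 9 centre lay 76403 bp upstream of *Il12b*, a cytokine gene, and 33414 bp upstream of *Sub1*, a transcriptional coactivator gene. They are shown, after their values were seen, for the arrangement of both sequences around the peak centre, in capitals as above.
Il12b, chr11:44136974-44137074: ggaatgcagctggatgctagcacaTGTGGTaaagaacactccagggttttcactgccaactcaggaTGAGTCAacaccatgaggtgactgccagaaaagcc
Sub1, chr15:11960125-11960225: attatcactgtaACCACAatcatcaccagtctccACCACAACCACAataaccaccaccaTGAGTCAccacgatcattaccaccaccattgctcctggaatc

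In 3 of the regions named for their scores, TGANTCA lay near the day 0 centre and not near the day 9 centre. The sequences within 50 bp of their day 0 centres follow, also chosen after their values were seen. The sequence of *Cdk18* held TGANTCA and ACCACA with 3 bp between them near the day 0 centre, and the day 9 centre was 78 bp away.
Cdk18, chr1:134048671-134048771: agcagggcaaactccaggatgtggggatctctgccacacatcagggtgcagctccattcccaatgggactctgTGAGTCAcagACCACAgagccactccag
Ptn, chr6:36780583-36780683: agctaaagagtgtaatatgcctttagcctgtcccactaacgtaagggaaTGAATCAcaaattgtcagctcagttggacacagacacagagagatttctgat
Gm9234, chr7:128162416-128162516: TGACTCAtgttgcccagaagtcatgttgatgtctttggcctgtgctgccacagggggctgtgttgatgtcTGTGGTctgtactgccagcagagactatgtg

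TEAD and NF1 sequences also differed from the day 9 only regions, by fewer points than AP-1. GGAATG was at 9.66% of the day 9 centres of the regions of days 0 and 9 (85 of 880) and at 4.36% of those of day 9 only regions, a difference of 5.30 points (3.49 to 7.45). The day 9 only share did not exceed its flank (4.92%), whereas the regions of days 0 and 9 had 5.91% in theirs. TTGGCA, a partial site of the NF1 factors, was at 10.0% against 5.73%, 4.27 points apart (2.42 to 6.45). Both were as frequent at day 0 centres, with 10.1% and 11.5%, and there the differences from day 0 only regions had intervals that included 0 (-3.89 to 0.790 and -2.28 to 2.57 points). From all-stage regions the day 9 differences were 0.222 points for GGAATG (-1.67 to 2.44) and 1.04 for TTGGCA (-0.874 to 3.28), and both intervals included 0. At day 0 centres they were 0.893 points (-1.04 to 3.14) and 2.20 (0.152 to 4.55).

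The E-box CAGCTG, bound by basic helix-loop-helix factors such as Twist, was at 8.64% of day 0 centres against 5.96% in day 0 only regions, 2.67 points apart (0.739 to 4.87), and at 8.18% of day 9 centres. All-stage regions held it at 9.53% of day 0 centres and 9.94% of day 9 centres, and both intervals of the difference included 0. The GC box GGGCGG, bound by Sp factors, was at 3.18% of day 9 centres against 6.83% in all-stage regions, a difference of -3.65 points (-4.77 to -2.18). Day 9 only regions had 2.81%, a difference of 0.371 points (-0.634 to 1.77). The 250 bp on either side of the day 9 centre had a median GC content of 49.5% in the regions of days 0 and 9, 51.9% in all-stage regions and 50.5% in day 9 only regions. Around the day 0 centre the median GC content was 49.2% in the regions of days 0 and 9, 51.3% in all-stage regions and 46.5% in day 0 only regions. The part of base composition in the motif shares was not tested. The Runx variant TGCGGT was at 3.98% of day 9 centres, 1.71 points above day 9 only regions (0.581 to 3.23). All-stage regions had 5.16%, a difference of -1.18 points (-2.39 to 0.390). The CRE TGACGTCA was at 5 of 880 day 9 centres, 0.411 points above all-stage regions (0.0678 to 1.17) and 0.480 above day 9 only regions (0.149 to 1.24), which rests on those 5 regions. The CArG box, the ETS sequence CCGGAAGT and the C/EBP sequence TTGCGCAA were at 3, 1 and 0 of 880, and their intervals included 0. Over all distal regions with a day 9 peak, GGAATG was at 6.28% of centres, TTGGCA at 7.30%, CAGCTG at 9.49%, GGGCGG at 4.41%, TGCGGT at 3.43%, TGACGTCA at 0.152%, the CArG box at 0.317%, CCGGAAGT at 0.146% and TTGCGCAA at 0.0193%. These were searched on both strands, a match of one may share bases with a match of another, and 17 of the 44 intervals computed for 11 sequences excluded 0, with no adjustment.

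**Figure D4:**
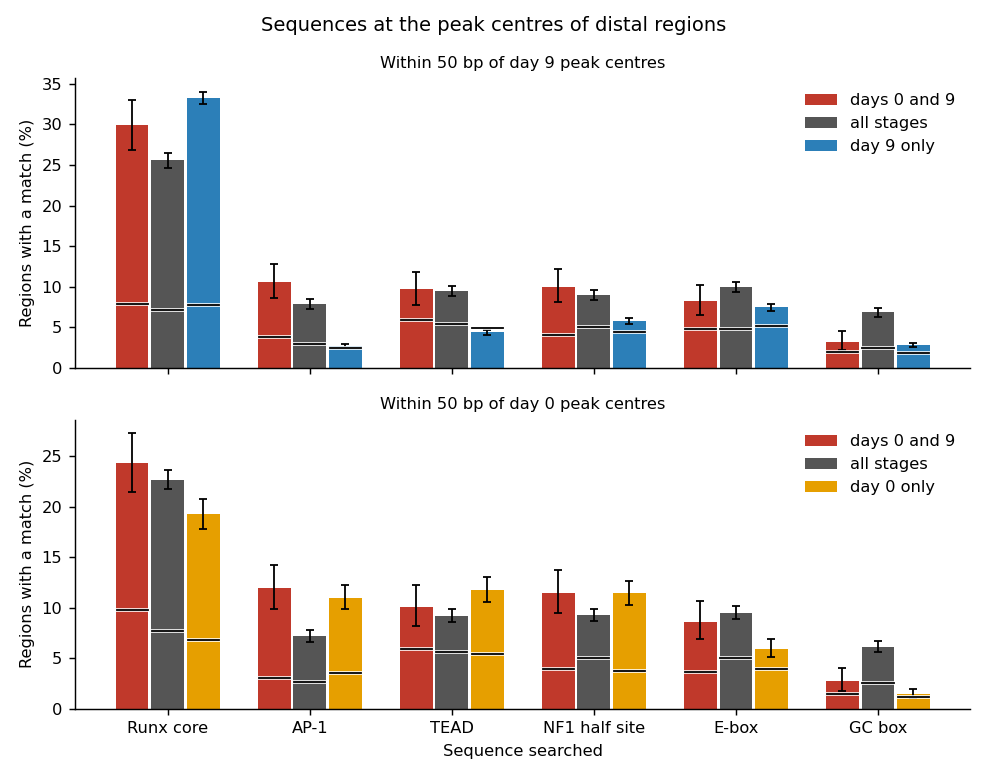
Percentage of regions (y axis) that hold each sequence within 50 bp of the day 9 centre (top) or day 0 centre (bottom), for regions of days 0 and 9 and the comparison classes, with exact 95% intervals as error bars and the share in the flanks as a black line across each bar. For AP-1, TEAD and NF1, the bars of the 880 regions stand above those of day 9 only regions (10.6% against 2.69% for AP-1), while day 0 only regions reach similar heights. At day 9 centres all-stage regions reach 9.44% for TEAD and 8.96% for NF1, near the 9.66% and 10.0% of the 880 regions.

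**Figure D5:**
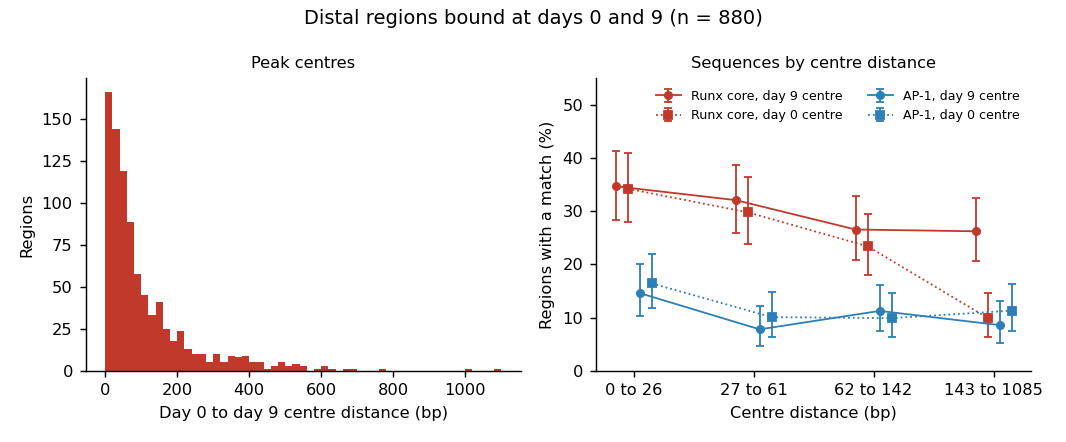
Left, number of regions (y axis) by distance in bp between the day 0 and day 9 centres, with a median of 62 bp. Right, percentage of regions with TGTGGT (red) or TGANTCA (blue) within 50 bp of the day 9 centre (circles, solid) or day 0 centre (squares, dotted), in 4 bands of the centre distance with exact 95% intervals. TGTGGT at the day 0 centre falls to 9.95% in the widest band.

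The regions lay in introns and between genes in about equal numbers. An intron of a protein-coding gene held 447 of the 880 centres (50.8%, 47.4% to 54.1%), and in 369 of these the host was also the gene of the nearest TSS. All distal regions had 53.4% in introns. Day 9 only regions had 55.9%, 5.10 points more than the regions of days 0 and 9 (95% interval of members minus others -8.48 to -1.72, Fisher's exact test, two-sided, adjusted p = 0.00696), a difference that did not pass at a peak p-value of 1e-20 (-3.40 points, exact test, adjusted p = 0.155). Day 0 only regions had 46.7% (difference 4.07 points, 0.275 to 7.86, exact test, adjusted p = 0.0509), and that difference passed by the exact test at 1e-20 (6.35 points, adjusted p = 0.0367) and with overlap of 50% of the shorter peak (4.03, 0.0477). All-stage regions had 49.0% (1.81 points, -1.66 to 5.28, exact test, adjusted p = 0.321), and the difference turned to -0.406 points with no day 28 peak within 1 kb.

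The nearest TSS was a median of 19175 bp away (95% interval 17542 to 20970). It was 1 to 5 kb away for 153 regions, 5 to 20 kb for 301, 20 to 50 kb for 271 and 50 to 100 kb for 155, and 398 regions (45.2%) lay upstream of it. The medians of all-stage (19095 bp) and day 9 only regions (19196 bp) lay inside that interval, and that of day 0 only regions (22911 bp) lay above it. Of the 266 regions of days 0 and 9 that were not kept, 54 had their centre in an exon, 55 lay within 1 kb of a TSS and 157 lay beyond 100 kb. Just inside the lower limit was a region 1064 bp from *Dand5*, and just outside was one 999 bp from *Wdsub1*. At the upper limit the nearest ones were 99661 bp from *Tcl1* (inside) and 100169 bp from *Glis3* (outside).

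Day 28 peaks were often near, although none overlapped. The nearest one was a median of 7450 bp away (6397 to 8840), within 10 kb for 488 regions (55.5%), within 1 kb for 108 (12.3%) and within 100 bp for 13 (1.48%). In *Clic4*, a chloride channel gene, it was 13 bp away, the smallest distance. For day 9 only regions the median was 8726 bp and for day 0 only regions 10380 bp. A day 28 peak lay within 10 kb of 53.5% of day 9 only regions and 49.2% of day 0 only regions. Within 1 kb these shares were 11.6% and 9.54%. A missing peak at day 28 means only that none passed the threshold of the list.

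The 880 regions had 798 nearest genes, of which 726 had 1 region, 62 had 2 and 10 had 3. The 10 genes were *Cd82*, *Dact2*, *Elk3*, *Erc2*, *Fos*, *Rapgef1*, *Sema3f*, *Smad3*, *Stac2* and *Usp10*. They differed in how many other distal regions lay nearest to them. *Sema3f*, a secreted guidance cue of the semaphorin family, had 4 distal regions in all, and 3 were of days 0 and 9. These stood in 1 stretch of introns between chr9:107602299 and chr9:107606593, with day 0 scores of 191, 174 and 135 and day 9 scores of 106, 140 and 212. *Smad3*, a mediator of TGF-beta signals, had 35 distal regions, of which 3 were of days 0 and 9, 8 of all stages and 14 of day 9 only. *Stac2* had 3 of 6, *Erc2* 3 of 9, *Usp10* (a deubiquitinase) 3 of 8, *Elk3* 3 of 10, *Cd82* (a tetraspanin) 3 of 12, *Dact2* 3 of 12 and *Rapgef1* (an activator of Rap1 in adhesion) 3 of 24.

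Around *Fos*, the AP-1 subunit itself, 13 distal regions were nearest, of which 3 were of days 0 and 9, 3 of all stages, 3 of day 9 only and none of day 0 only. The 3 lay 26692 bp and 11702 bp upstream of the TSS and 13870 bp downstream. Their day 0 scores were 167, 331 and 177 (percentiles 27.4, 57.9 and 30.2), and their day 9 scores were 103, 131 and 121 (percentiles 2.00, 18.8 and 14.1). All 3 thus stood higher in the day 0 list than in the day 9 list. Other immediate early and AP-1 genes with a region were *Egr2* (day 0 score 142, day 9 score 556), *Ier5* (285 and 117) and *Bach2* (108 and 126). Together the list of 31 such genes was nearest to 6 of the 880 regions (0.682%), against 0.428% of all distal regions.

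Genes of the YAP and TEAD pathway, which couples adhesion and cell density to growth, were nearest to 6 of the 880 regions (0.682%, 95% interval 0.251% to 1.48%), against 0.204% of all distal regions, 0.217% of all-stage regions and 0.148% of day 9 only regions. The counts are small, and day 0 only regions had 0.515%. The genes were *Wwtr1* (TAZ, a coactivator of TEAD), *Tead1* (a TEAD factor), *Lats2* (the kinase that inhibits YAP and TAZ) and *Ankrd1* (a common target), 4 of the 15 listed genes in the annotation. *Wwtr1* had 1 region 1499 bp from the TSS with scores of 157 at day 0 and 258 at day 9 and 1 at 73951 bp with 106 and 128. *Lats2* had 2 regions, with scores of 226 and 136 and of 104 and 126, *Tead1* 1 region with 337 and 127, and *Ankrd1* 1 region with 172 and 120. The sequence within 50 bp of the day 9 centre is shown only for the regions of these genes and of *Fos* that held TGTGGT there. These regions were chosen after their values were seen. The other *Wwtr1*, *Lats2* and *Fos* regions and the *Tead1* region did not hold it there.
Wwtr1, chr3:57378203-57378303: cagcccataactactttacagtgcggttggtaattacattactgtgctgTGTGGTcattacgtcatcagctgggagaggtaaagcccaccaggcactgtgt
Ankrd1, chr19:36257803-36257903: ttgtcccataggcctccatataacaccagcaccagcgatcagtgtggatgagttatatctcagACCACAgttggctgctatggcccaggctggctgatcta
Lats2, chr14:58392557-58392657: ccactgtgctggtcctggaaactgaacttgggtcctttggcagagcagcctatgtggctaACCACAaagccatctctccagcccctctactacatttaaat
Fos, chr12:86788070-86788170: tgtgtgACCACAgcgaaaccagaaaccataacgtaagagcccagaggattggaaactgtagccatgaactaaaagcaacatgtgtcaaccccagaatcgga

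Osteoblast genes were nearest to 5 regions (0.568%, against 0.467% of all distal regions). A region 49400 bp downstream of the TSS of *Mepe*, a matrix phosphoglycoprotein of osteocytes, at chr5:104803220-104804275, scored 799 at day 0 (percentile 86.5) and 112 at day 9 (percentile 8.85). A region 43837 bp upstream of *Spp1* (osteopontin), at chr5:104819782-104820818, scored 389 at day 0 (percentile 64.2) and 159 at day 9 (percentile 29.6). Both therefore ranked far higher in the list of proliferating cells than in that of matrix-depositing cells. These 2 regions lie close together on the chromosome and are not separate loci. The 2 regions of *Sparc* (osteonectin) scored 191 and 239 at day 0 and 157 and 273 at day 9, and the region of *Twist2*, an inhibitor of early osteoblast maturation, scored 140 and 340. No region was nearest to a Runx family gene, against 89 of all distal regions (0.204%), and none was nearest to the listed adipocyte and muscle factors, against 130 (0.298%). A count of 0 of 880 regions allows a share of up to 0.341% (3 counts), and up to 0.418% by the exact 95% interval, both above these shares.

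Actin cytoskeleton and adhesion genes were the most frequent list, with 14 regions at 13 genes (1.59%, 0.872% to 2.65%, against 1.28% of all distal regions and 0.756% of day 9 only regions). All-stage regions had 1.82% and day 0 only regions 1.47%. Beside *Tns3* these genes included *Actn4*, *Arhgef2*, *Diap1*, *Fhl3*, *Itgb5*, *Lpp*, *Myh9*, *Mylk*, *Rock1*, *Tln2* and *Tpm1* (2 regions). *Mylk*, the myosin light chain kinase gene, scored 352 at day 0 (percentile 60.5) and 133 at day 9 (percentile 20.1). *Arhgef2*, which encodes an activator of RhoA, scored 153 (percentile 23.1) and 326 (percentile 56.4). Extracellular matrix genes were nearest to 7 regions (0.795%, against 1.23% of all distal regions and 1.86% of all-stage regions), namely *Col12a1*, *Col5a1*, *Efemp1*, *Loxl1*, *Nov*, *Thbs2* and *Wisp2*. Day 9 only regions had 0.838% and day 0 only regions 1.25%. *Loxl1*, a collagen and elastin crosslinking enzyme, scored 155 (percentile 23.9) at day 0 and 316 (percentile 55.5) at day 9.

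TGF-beta and BMP genes were nearest to 8 regions (0.909%, against 0.731%), among them those of *Smad3* (3 regions), *Bmp3*, *Ltbp2*, *Tgfb2* and *Tgfbr2*. *Ltbp2*, a latent TGF-beta binding protein, had scores of 619 at day 0 (percentile 80.1) and 326 at day 9 (percentile 56.3), and *Tgfbr2*, a TGF-beta receptor, 412 (percentile 66.3) and 145 (percentile 25.02). Growth factor and receptor genes were nearest to 7 regions (0.795%, against 0.662%), namely *Areg*, *Bdnf*, *Fgf7*, *Fgfr1*, *Fgfr2*, *Nrg1* and *Pdgfb*. Of these, *Fgf7*, a fibroblast growth factor for epithelium, scored 126 (percentile 13.1) at day 0 and 588 (percentile 70.7) at day 9.

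Wnt genes were nearest to 4 regions (0.455%, against 0.850%), at *Tcf7l2* (2 regions), *Tle1* and *Wnt1*. Cell cycle genes were nearest to 4 (0.455%, against 0.261%), at *Ccnd1* (2 regions, day 0 scores 140 and 156, day 9 scores 173 and 197), *E2f8* and *Myc*. The p53 and apoptosis genes were nearest to 3 (0.341%, against 0.426%), at *Bbc3*, *Gadd45b* and *Xiap*, and the region of *Bbc3*, the proapoptotic gene Puma, scored 130 (percentile 14.7) and 499 (percentile 67.2). For 11 of the 12 lists the share over all distal regions lay within the exact 95% interval of the 880 regions, the YAP and TEAD list being the exception, and no list was tested.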

How the data were processed

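Runx2 ChIP-Seq of MC3T3-E1 cells at days 0, 9 and 28 was analysed from 1 peak list per time point. The submitters' processing notes name CASAVA 1.6, Bowtie 0.12.8 and MACS 1.4.1 and the build mm9. The authors aligned the reads, pooled the libraries of a time point, called peaks against pooled input DNA and retained those that passed a p-value threshold. The deposited score is -log10 of the MACS p-value multiplied by 10, its lowest value was 100 in each list, and it was used here only within a list. The lists hold no read counts, so the depth is unknown from them.

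Peaks sharing at least 1 bp were merged. Locations came from 51710 protein-coding transcripts of GENCODE M1 on the same assembly (NCBIM37, 0 peaks outside it), and a region took the highest-scoring peak of each day. Sequences were searched within 50 bp of peak centres, which stand in for summits, and in flanks of the same summed length 500 bp away. Paired shares were compared by exact McNemar tests and classes by Fisher's exact tests, with Benjamini-Hochberg adjustment over 9 tests and a threshold of 0.05. Shares carry exact (Clopper-Pearson) 95% intervals, differences Newcombe intervals and medians distribution-free intervals. Regions of one locus are not independent.

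The regions, motifs and gene lists were chosen with earlier results of these data known. Named regions are the 10 of highest lower percentile, the top 5 of each day, those at the limits of the TSS distance, those nearest to a listed gene, and genes nearest to at least 3 regions. Some listed genes are not reported here. Alternatives covered the peak p-value, overlap, day 28 distance, transcripts, chromosomes, TSS limit, window and motif. Those for TGANTCA were chosen after seeing the data. Signal tracks and input libraries were not analysed here. Procedures (Python 3.11.15, NumPy 2.4.6, SciPy 1.17.1, Matplotlib 3.10.9) were tested on simulated data.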

Additional observations from a re-analysis of the deposited data

How the results depend on the processing

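Of 142 comparisons of a value with its alternatives, 114 kept their direction and their side of the threshold, or moved by less than their interval. The excess of TGTGGT over the flanks at both centres, the difference from day 0 only regions at day 0 centres, and the excess of TGANTCA over day 9 only regions at day 9 centres kept theirs under every alternative run (for the last, from 6.18 to 14.9 points). At a peak p-value of 1e-20 the number of regions fell to 478, and differences in percentage points (exact tests) were -4.97 for TGTGGT against day 9 only regions (adjusted p = 0.0417), 4.28 for TGTGGT at day 0 against all-stage regions (0.0456), -3.40 for introns against day 9 only regions (0.155), 6.35 for introns against day 0 only regions (0.0367) and -0.000526 for TGANTCA at day 0 against day 0 only regions. With overlap of 50% of the shorter peak, the differences were -3.82 for TGTGGT against day 9 only regions (0.0286) and 4.03 for introns against day 0 only regions (0.0477). With centres within 250 bp, which gave 1171 regions, they were -1.53 and -2.48 for TGTGGT against all-stage regions at days 9 and 0, -6.67 for TGTGGT against day 9 only regions (exact test, adjusted p = 3.83e-06) and 1.16 for TGANTCA against all-stage regions at day 9. With no day 28 peak within 1 kb, introns against all-stage regions stood at -0.406. With a TSS limit of 50 kb, TGTGGT against day 9 only regions stood at -3.88 (0.0472) and TGANTCA against all-stage regions at day 9 at 1.92. With 100 bp on either side, TGTGGT against day 9 only regions was 0.854, against all-stage regions at day 0 3.82 (0.0419), and TGANTCA at day 0 against day 0 only regions -0.422. With TGTGGT or TGCGGT, the differences from all-stage regions were 3.34 at day 9 (0.0611) and -0.216 at day 0. The stricter p-value was applied to all 3 lists before merging, so that regions whose day 28 peak did not reach it could enter. Of the 880 regions, 122 reached it at both days, so that the 478 are mostly other regions. The cause of the changes was not tested. No paired analysis was possible because each time point has a single pooled list. The lists give no depth and no replicate error, so that a peak missing at day 28 cannot be told apart from one below the threshold.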

Other observations

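Chromosome 2 held 109 of the 880 regions (12.4%, 95% interval 10.3% to 14.7%), against 8.82% of all distal regions and 8.34% of day 9 only regions. Day 0 only regions had 12.4% there (11.2% to 13.7%) and all-stage regions 9.80%. No other chromosome held more than 68 of the 880, the number on chromosome 11.

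The study also listed genes whose expression changed by at least 1.5-fold when Runx2 was depleted by shRNA. Of the 880 regions, 3 were nearest to a gene on the list of those lower after depletion (0.341%, against 0.518% of all distal regions), namely *Gpr116*, *Insig1* and *Lrrtm2*. Another 6 were nearest to a gene on the list of those higher after depletion (0.682%, against 0.396%), namely *Apol9a*, *Gm6020*, *H2-D1*, *Ly6a*, *Ly6f* and *Rnf213*. Several of these are known as interferon-responsive or surface antigen genes. Counts of this size were not tested.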
